A study of Mus musculus with 18 samples.

Results

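Low oxygen and sugar metabolism in 4T1 tumors were followed through 34 genes, 17 targets of the hypoxia-inducible factor (HIF) and 17 genes of glycolysis, out of 22792 genes in the count tables. They were chosen by name: each gene is a row whose Entrez Gene identifier belongs to one of 34 mouse symbols. The symbols were picked with earlier results of these data known. All 34 were found and all 34 had enough counts to be tested. The HIF targets and the glycolysis genes are kept apart throughout, because several glycolysis genes are HIF targets as well but are also set by many other signals. Genes kept as HIF targets are not set by HIF alone either: Ddit4, for example, is also induced by other stress.

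RNA was sequenced from whole 4T1 tumors, 1 tumor per mouse, in 4 groups that differed in treatment. 4T1 is a triple-negative mammary carcinoma line from the mouse. For each tumor 300000 cells were placed in the mammary fat pad of 8-week-old female Balb/c mice, so that each tumor also held host cells such as vessels, fibroblasts and leukocytes. Vehicle (n = 5) received the carrier alone, PI3Ki (n = 4) received the pan-PI3K inhibitor CLR457 at 20 mg/kg, SHP2i (n = 4) received the allosteric SHP2 inhibitor SHP099 at 100 mg/kg, and Combo (n = 5) received both, from day 7 until the tumors were taken on day 21. Values in a sentence follow the replicate numbers 1 to 5 in Vehicle and Combo, 1, 2, 3 and 5 in PI3Ki and 2 to 5 in SHP2i. The mice carried no engineered allele named in the labels, and all results rest on a single tumor line. The paper reports smaller tumors with SHP099 alone, much smaller ones with both inhibitors and no effect of CLR457 alone on tumor growth. Its text also reports more apoptosis with SHP099 alone and with both inhibitors. The sizes of the sequenced tumors are not given in the sources used here. The part of tumor size and cell death in the results was not tested.

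HIF is a pair of proteins, an alpha subunit that oxygen controls and the stable partner ARNT. With oxygen present, prolyl hydroxylases of the Egln family mark the alpha subunit for destruction through VHL, and with oxygen scarce the alpha subunit lasts, enters the nucleus and binds the core letters ACGTG or GCGTG near its targets. Those targets raise glucose uptake, turn pyruvate away from mitochondria, remove mitochondria, modify collagen and feed back on the hydroxylases. Signaling through PI3K and mTOR is known to raise both HIF synthesis and glycolysis, and CLR457 and SHP099 act on or upstream of that signaling. They need not lower it alike. The paper reports that prolonged SHP099 alone raised AKT phosphorylation, a mark of PI3K signaling, in tumors of this line. With CLR457 added, it reports, that rise was blunted.

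The 250 bases upstream of 1 annotated transcript start (RefSeq, GRCm38.p6) are shown for 6 members that carry the results: 4 that rose in Combo tumors (Egln3, Bnip3, Pdk1 and Mxi1), 1 that did not pass the test there (Pgk1) and 1 that fell (Slc16a3). Each is written 5′ to 3′ on the strand of its gene, and capitals mark ACGTG or GCGTG read on either strand (CACGT and CACGC are the same letters on the opposite strand, and CACGTG holds the first on both strands). They lie at chr12:54203875-54204124 (minus strand), chr7:138909507-138909756 (minus), chr2:71872974-71873223 (plus), chr19:53310256-53310505 (plus), chrX:106186850-106187099 (plus) and chr11:120948817-120949066 (plus). The genes span chr12:54178981-54203874, chr7:138890836-138909506, chr2:71873215-71903858, chr19:53310128-53373293, chrX:106187100-106203699 and chr11:120948484-120959000 in the same order. The windows of Mxi1 and Slc16a3 lie inside the gene span, downstream of its first base, and that of Pdk1 reaches into it by a few bases.
Egln3: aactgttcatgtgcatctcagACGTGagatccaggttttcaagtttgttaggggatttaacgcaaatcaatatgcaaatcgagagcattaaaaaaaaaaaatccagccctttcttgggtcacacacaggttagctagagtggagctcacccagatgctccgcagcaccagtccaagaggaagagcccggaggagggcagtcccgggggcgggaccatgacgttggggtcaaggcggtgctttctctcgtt
Bnip3: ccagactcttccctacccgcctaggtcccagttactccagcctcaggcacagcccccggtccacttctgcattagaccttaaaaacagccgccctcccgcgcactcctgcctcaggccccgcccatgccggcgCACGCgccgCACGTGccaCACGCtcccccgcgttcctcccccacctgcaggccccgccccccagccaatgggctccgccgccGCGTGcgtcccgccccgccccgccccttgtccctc
Pdk1: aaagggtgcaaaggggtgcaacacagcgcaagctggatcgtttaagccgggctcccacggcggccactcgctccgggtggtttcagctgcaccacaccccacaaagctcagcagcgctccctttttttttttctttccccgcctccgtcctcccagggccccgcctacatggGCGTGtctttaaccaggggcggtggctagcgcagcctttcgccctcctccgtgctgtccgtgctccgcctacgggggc
Mxi1: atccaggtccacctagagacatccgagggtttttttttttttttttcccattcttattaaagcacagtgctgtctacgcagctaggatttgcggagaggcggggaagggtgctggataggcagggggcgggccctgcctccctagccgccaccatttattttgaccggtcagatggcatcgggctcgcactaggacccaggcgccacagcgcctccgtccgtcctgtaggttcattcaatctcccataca
Pgk1: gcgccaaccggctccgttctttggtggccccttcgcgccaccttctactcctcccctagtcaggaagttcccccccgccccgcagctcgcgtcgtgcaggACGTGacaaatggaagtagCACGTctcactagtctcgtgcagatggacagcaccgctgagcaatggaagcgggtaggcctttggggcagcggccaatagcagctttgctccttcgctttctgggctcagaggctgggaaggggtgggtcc
Slc16a3: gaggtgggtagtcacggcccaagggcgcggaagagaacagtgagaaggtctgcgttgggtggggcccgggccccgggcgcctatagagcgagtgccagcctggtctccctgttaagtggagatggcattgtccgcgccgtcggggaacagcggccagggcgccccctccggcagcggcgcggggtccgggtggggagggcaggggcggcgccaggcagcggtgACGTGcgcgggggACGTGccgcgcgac

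The letters occurred in windows of genes that rose and of genes that did not: Pgk1 and Slc16a3 hold them, and the window of Mxi1, which rose, does not. That window is not at the most upstream start of Mxi1, whose own sequence was not searched. Over windows of 300 bases, 250 before and 50 after the start, 12 of 13 HIF targets (92.3%) and 12 of 17 glycolysis genes (70.6%) held at least 1 match, against 14380 of all 32851 RefSeq windows (43.8%). Windows were matched to 30 of the 34 genes, and Ndrg1, Bhlhe40, Bnip3l and Plod2 are named without one. A match is a description of the letters and does not show that HIF was bound there in these tumors.

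The libraries held 21.16 to 26.62 M counts (median 23.52 M), and no library was a copy of another. Several kinds of host marker moved between the groups. The summed level of 19 skeletal muscle genes was 1030 to 2500 CPM (counts per M counts, TMM scaled) in PI3Ki against 15.4 to 136 in Vehicle. The 19 neutrophil genes summed to 914 to 3380 CPM in PI3Ki, wholly above the 585 to 791 in Vehicle. That of 20 endothelial genes was 600 to 736 CPM in Combo against 1030 to 1230 in Vehicle, with 17 of the 20 lower in Combo. Macrophage genes summed to 1210 to 3960 CPM in Combo and 1960 to 3900 in SHP2i, against 5200 to 7320 in Vehicle. The epithelial keratins Krt8 (mean 559 CPM in Vehicle and 393 in Combo) and Krt18 (375 and 306 CPM) were present in all groups. Krt8 was lower in Combo (log2 fold change -0.51, adjusted p = 0.00503), and of the 14 epithelial genes Trp63 (log2 fold change 0.98, adjusted p = 0.0278) and Ovol1 (log2 fold change 0.80, adjusted p = 0.0462) were higher there and the other 11 did not pass. Ovol1 was near the floor, with means of 0.308 CPM in Vehicle and 0.538 in Combo. PI3Ki replicate 2 stood apart by its leukocyte, red cell and fibroblast genes, and Combo replicates 3 and 4 by B cell genes (555 and 266 CPM against 9.41 to 43.4 in the other Combo tumors). Without those 2 Combo tumors all 21 calls in Combo against Vehicle held. In RNA from whole tumors, fewer cells of a type and less RNA per cell cannot be told apart. Of the 34 genes, 14 share exon bases with another gene, and the strand setting of the counting is not given in the sources used here.

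Among the 17 members kept as HIF targets, 3 rose in PI3Ki, 6 rose in SHP2i and 11 rose in Combo, and none fell. HIF targets outside this set did fall. Slc16a3, kept among the glycolysis genes, fell in Combo, and of 23 other HIF targets 10 rose and 2 fell there. A gene is said to rise or fall where its p from the quasi-likelihood test of edgeR, corrected after Benjamini and Hochberg for 15282 genes, was under 0.05. The share of all tested genes called in either direction was 5.11% in PI3Ki, 11.6% in SHP2i and 43.6% in Combo. The share called higher was 2.69%, 5.05% and 23.9%, and the share called lower 2.42%, 6.54% and 19.7%, in the same order. The 11 of 17 in Combo (64.7%), the 6 of 17 in SHP2i (35.3%) and the 3 of 17 in PI3Ki (17.6%) are read against these shares. The median log2 fold change of the 17 HIF targets was 0.28 in PI3Ki, 0.43 in SHP2i and 0.58 in Combo, where the median of all genes tested was 0.01, 0.02 and 0.02.

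Of the 17 glycolysis genes none passed the test in PI3Ki (2 had an unadjusted p under 0.05, and DESeq2 called 0). In SHP2i 1 fell (Pfkfb4) and none rose, with 5 at an unadjusted p under 0.05. That 1 of 17 (5.88%) is near the 6.54% of all genes called lower. In Combo 8 rose and 2 fell, where 23.9% of all genes were called higher and 19.7% lower, so that the falls do not exceed that share. The median log2 fold change was 0.24 in Combo beside 0.12 in PI3Ki and 0.13 in SHP2i. Together the 17 glycolysis genes took 0.92 to 1.02% of a Vehicle tumor's counts and 0.997 to 1.22% of a Combo tumor's. The 17 HIF targets took 0.173 to 0.237% in Vehicle, 0.203 to 0.297% in PI3Ki, 0.254 to 0.333% in SHP2i and 0.31 to 0.468% in Combo. The Vehicle and Combo shares of the HIF targets thus did not overlap, while those of the glycolysis genes did. The highest genes weigh most in such sums. They were Ndrg1 (mean 502 CPM in Vehicle and 1570 in Combo) and Egln3 (247 and 598) among the HIF targets. Among the glycolysis genes they were Pkm (2130 and 2140), Eno1 (1300 and 1450) and Aldoa (1280 and 1600).

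**Figure D1:**
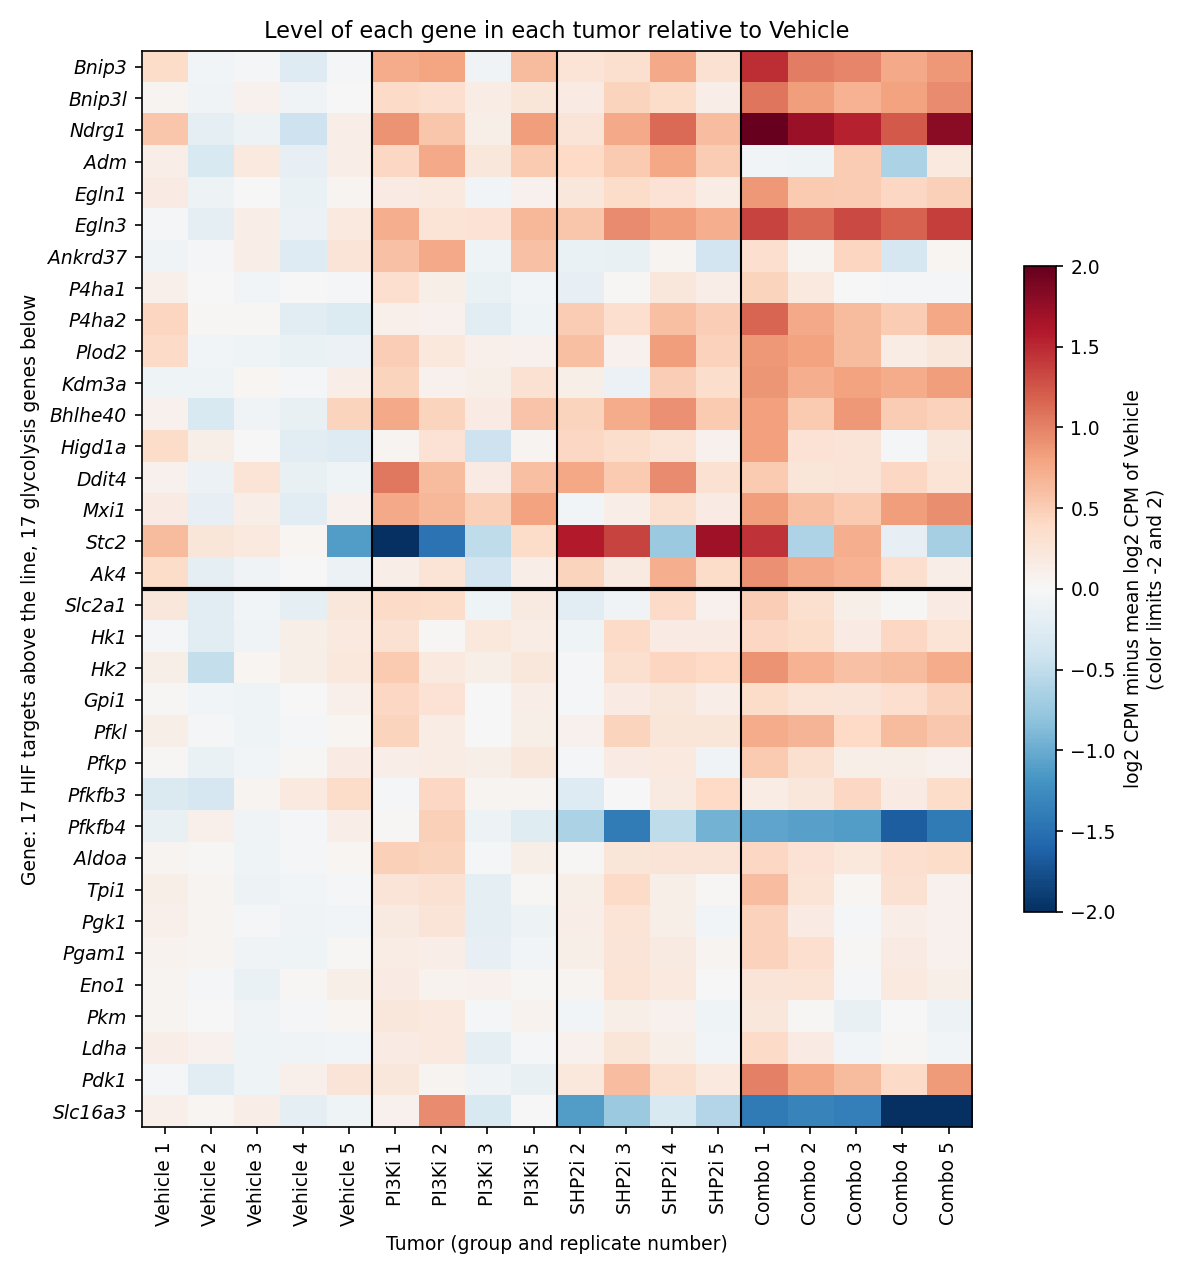
Level of each of the 34 genes in each of the 18 tumors, as log2 CPM minus the mean of the 5 Vehicle tumors, with HIF targets and glycolysis genes in separate blocks and colors limited at ±2. In Combo most rows of the HIF block are warm, with Adm, Ankrd37, P4ha1 and Stc2 mixed or pale, and in the glycolysis block Hk2, Pfkl and Pdk1 are warm and Pfkfb4 and Slc16a3 cold.

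All 17 HIF targets had a positive log2 fold change in Combo, from 0.03 to 1.65, and 3 of them were called with a value over 1 (Bnip3, Ndrg1 and Egln3), as were 3.99% of all genes. Of the glycolysis genes 2 were called below -1 (Pfkfb4 and Slc16a3), as were 6.86% of all genes. In 9 of the 17 HIF targets, every Combo tumor lay above every Vehicle tumor, where 15.5% of all genes tested did so. Among the glycolysis genes 5 lay wholly above and 2 wholly below the Vehicle tumors, the latter beside 13.4% of all genes. In SHP2i, 5 HIF targets lay wholly above (background 8.60%) and 2 glycolysis genes wholly below (10.5%). In PI3Ki, 4 HIF targets lay wholly above the Vehicle tumors (5.16%) and no glycolysis gene did.

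**Figure D2:**
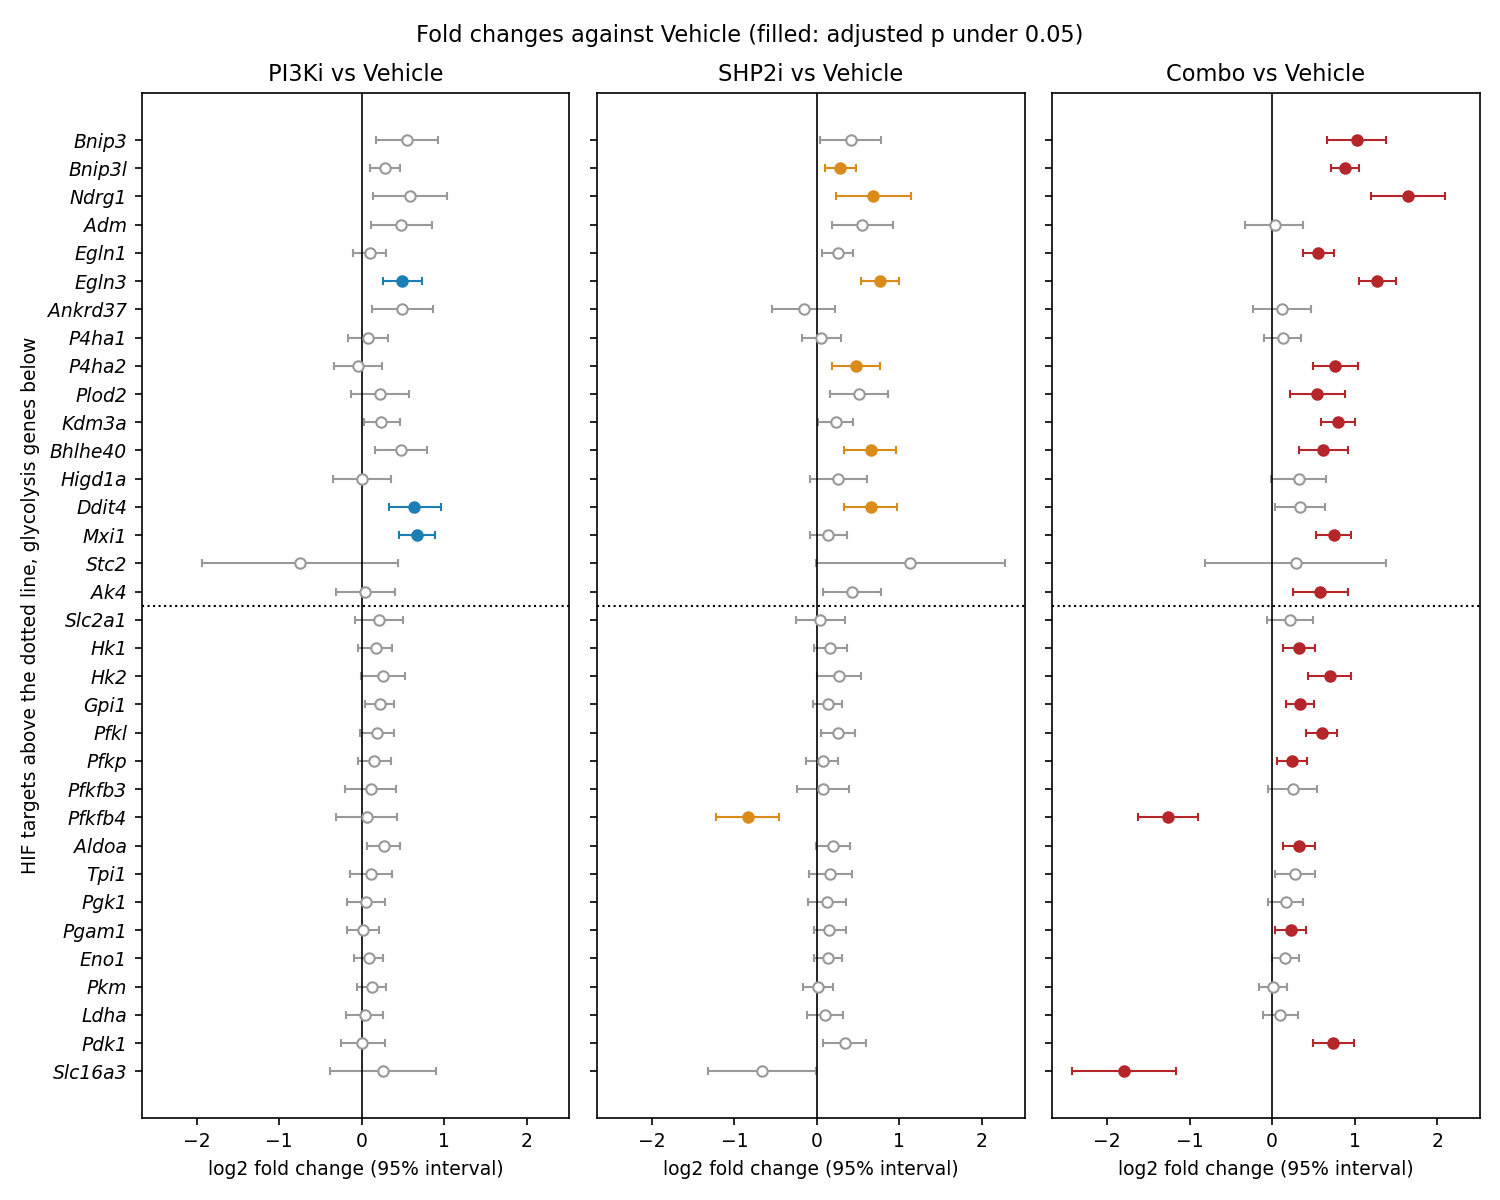
Log2 fold change of each gene against Vehicle for PI3Ki, SHP2i and Combo, with its 95% interval, filled where the adjusted p is under 0.05. Filled points lie right of 0 for 11 HIF targets in Combo, and the 2 glycolysis genes filled left of 0 are Pfkfb4 and Slc16a3.

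The calls in Combo rested on a contrast in which vessel and leukocyte genes changed too. With the mean log2 level of the endothelial genes added to the model, 3 of the 21 calls in Combo held (Bnip3l, Egln3 and Pdk1) and 18 were lost. The log2 fold changes of the lost 18 then ran from -1.25 to 1.83. Ndrg1 was at 1.83 (adjusted p = 0.0832) and Bnip3 at 1.18 (adjusted p = 0.17), while Plod2 went to 0.07 (adjusted p = 0.95) and Kdm3a to 0.40 (adjusted p = 0.427). With the neutrophil genes as the covariate 10 of the 21 held, of which 9 were HIF targets and 1 was Pfkl. The endothelial sums of the Vehicle and Combo tumors did not overlap, so that this covariate and the treatment cannot be told apart within these libraries. With the muscle genes as the covariate none of the 3 calls in PI3Ki held (log2 fold changes 0.49 to 0.86), and there too the sums of both groups did not overlap.

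Levels between genes are compared per kb of exon. Among the HIF targets in Vehicle tumors, Egln3 (92.9 CPM per kb), Ndrg1 (76.1), Ddit4 (59.3) and P4ha1 (58) were highest, and Stc2 (2.42) and Ak4 (4.78) were lowest. Among the glycolysis genes the order was Pkm (426), Pgk1 (354), Aldoa (345) and Ldha (323) at the top and Pfkfb4 (4.16) and Slc16a3 (10.7) at the bottom. In Combo tumors Ndrg1 (238 CPM per kb) and Egln3 (225) led the HIF targets, above Bnip3 (103) and Bnip3l (80.1). The highest glycolysis genes of Combo tumors were Aldoa (432), Pkm (428) and Pgk1 (397).

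The oxygen sensors among the HIF targets are Egln3 and Egln1, which encode the prolyl hydroxylases PHD3 and PHD2 and are themselves induced by HIF. Egln3 (chromosome 12, minus strand) stood at 242, 215, 269, 227 and 283 CPM in the Vehicle tumors, 406, 298, 301 and 389 in PI3Ki, 362, 470, 439 and 408 in SHP2i and 629, 544, 614, 556 and 647 in Combo. The 4 groups were stacked in that order with the ranges of PI3Ki and SHP2i overlapping, and each treated group lay wholly above Vehicle. Against Vehicle, Egln3 was 1.41-fold higher in PI3Ki (log2 fold change 0.49, SE 0.112, adjusted p = 0.0151), 1.7-fold higher in SHP2i (log2 fold change 0.76, SE 0.112, adjusted p = 0.000395) and 2.42-fold higher in Combo (log2 fold change 1.27, SE 0.108, adjusted p = 2.58e-07). It was the only one of the 34 genes called higher in all 3 comparisons with Vehicle. The call in PI3Ki was lost without PI3Ki 1 or 5 (log2 fold change 0.41 to 0.44, adjusted p = 0.0607 to 0.0633).

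Egln1, the hydroxylase that sets HIF levels in most tissues, was at 133, 111, 118, 109 and 123 CPM in the Vehicle tumors, 133, 135, 114 and 126 in PI3Ki, 138, 152, 145 and 131 in SHP2i and 217, 171, 168, 158 and 164 in Combo. Combo tumors lay above all others, and the ranges of PI3Ki and Vehicle overlapped. Its rise was 1.48-fold in Combo (log2 fold change 0.56, SE 0.0865, adjusted p = 7.97e-05). In SHP2i its log2 fold change was 0.25 (adjusted p = 0.0817), and it passed the test without Combo 1 (log2 fold change 0.25, adjusted p = 0.0317). Within each tumor the ratio of Egln3 to Egln1 counts averaged 2.08 in Vehicle, 2.74 in PI3Ki, 2.97 in SHP2i and 3.44 in Combo. The log2 ratio was higher by 0.72 in Combo and by 0.51 in SHP2i (exact two-sided permutation test, p = 0.00794 each, the smallest these group sizes allow, adjusted p = 0.0212 over 24 ratio tests), and by 0.39 in PI3Ki (exact p = 0.0317, adjusted p = 0.0692). The 8 ratios behind these 24 tests were chosen with the values known.

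Bnip3 and Bnip3l encode outer-membrane receptors that hand mitochondria to autophagy. Bnip3 was at 146, 110, 110, 94.5 and 112 CPM in the Vehicle tumors, 189, 197, 108 and 175 in PI3Ki, 137, 141, 190 and 141 in SHP2i and 316, 231, 224, 190 and 206 in Combo. All Combo tumors lay above the Vehicle tumors, and the tumors of either inhibitor reached from the Vehicle range to the bottom of the Combo range. It rose 2.04-fold in Combo (log2 fold change 1.03, SE 0.168, adjusted p = 0.000141) and did not pass the test in PI3Ki (log2 fold change 0.55, adjusted p = 0.0855) or SHP2i (log2 fold change 0.41, adjusted p = 0.133). In PI3Ki it passed with DESeq2 (log2 fold change 0.55, adjusted p = 0.0397) and without PI3Ki 3 or Combo 1 (log2 fold change 0.56 to 0.71, adjusted p = 0.0143 to 0.0488). Of its stretches of 75 bases, 11.37% also occur in another gene or pseudogene.

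Bnip3l was at 175, 160, 177, 159 and 169 CPM in the Vehicle tumors, 219, 211, 186 and 198 in PI3Ki, 189, 229, 217 and 184 in SHP2i and 354, 301, 271, 294 and 325 in Combo. Combo tumors were highest with no overlap with any other group, and both single inhibitors lay wholly above Vehicle. It was 1.84-fold higher in Combo (log2 fold change 0.88, SE 0.0817, adjusted p = 6.5e-07) and 1.22-fold higher in SHP2i (log2 fold change 0.28, SE 0.0858, adjusted p = 0.0398). In PI3Ki the log2 fold change was the same 0.28 but missed the threshold (adjusted p = 0.0724), and it passed with DESeq2 (adjusted p = 0.0299) or with only both groups in the fit (adjusted p = 0.0488). The SHP2i call was lost without Vehicle 1, 2, 3, 4 or 5, PI3Ki 5 or SHP2i 3 or 4 (log2 fold change 0.22 to 0.30, adjusted p = 0.0564 to 0.132), and in PI3Ki the test was passed without SHP2i 3 or Combo 1 (log2 fold change 0.29, adjusted p = 0.041 to 0.0471). The processed pseudogene Bnip3l-ps shares 16.92% of its stretches of 75 bases. The ratio of Bnip3 to Bnip3l passed in none of the 3 comparisons (log2 differences 0.13 to 0.25).

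Ak4, a mitochondrial adenylate kinase, and Higd1a, a small protein of the respiratory chain, were the other mitochondrial members. Ak4 was at 28.2, 19.4, 20.9, 22.1 and 20.4 CPM in the Vehicle tumors, 24.2, 26.5, 16.8 and 24 in PI3Ki, 30.1, 25, 36.2 and 28.3 in SHP2i and 41.6, 37.1, 35.5, 27.9 and 24.1 in Combo. The Combo tumors spread from within the Vehicle range to well above it. Ak4 rose 1.5-fold in Combo (log2 fold change 0.58, SE 0.158, adjusted p = 0.00674), a value that became 1.04 with the neutrophil covariate. Higd1a ranged over 28.4 to 43.5 CPM in Vehicle, 25.3 to 41.4 in PI3Ki, 35.8 to 45.2 in SHP2i and 33.5 to 59.9 in Combo, with all groups overlapping, and did not pass in Combo (log2 fold change 0.32, adjusted p = 0.104). It passed without Combo 4 (log2 fold change 0.41, adjusted p = 0.0435).

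**Figure D3:**
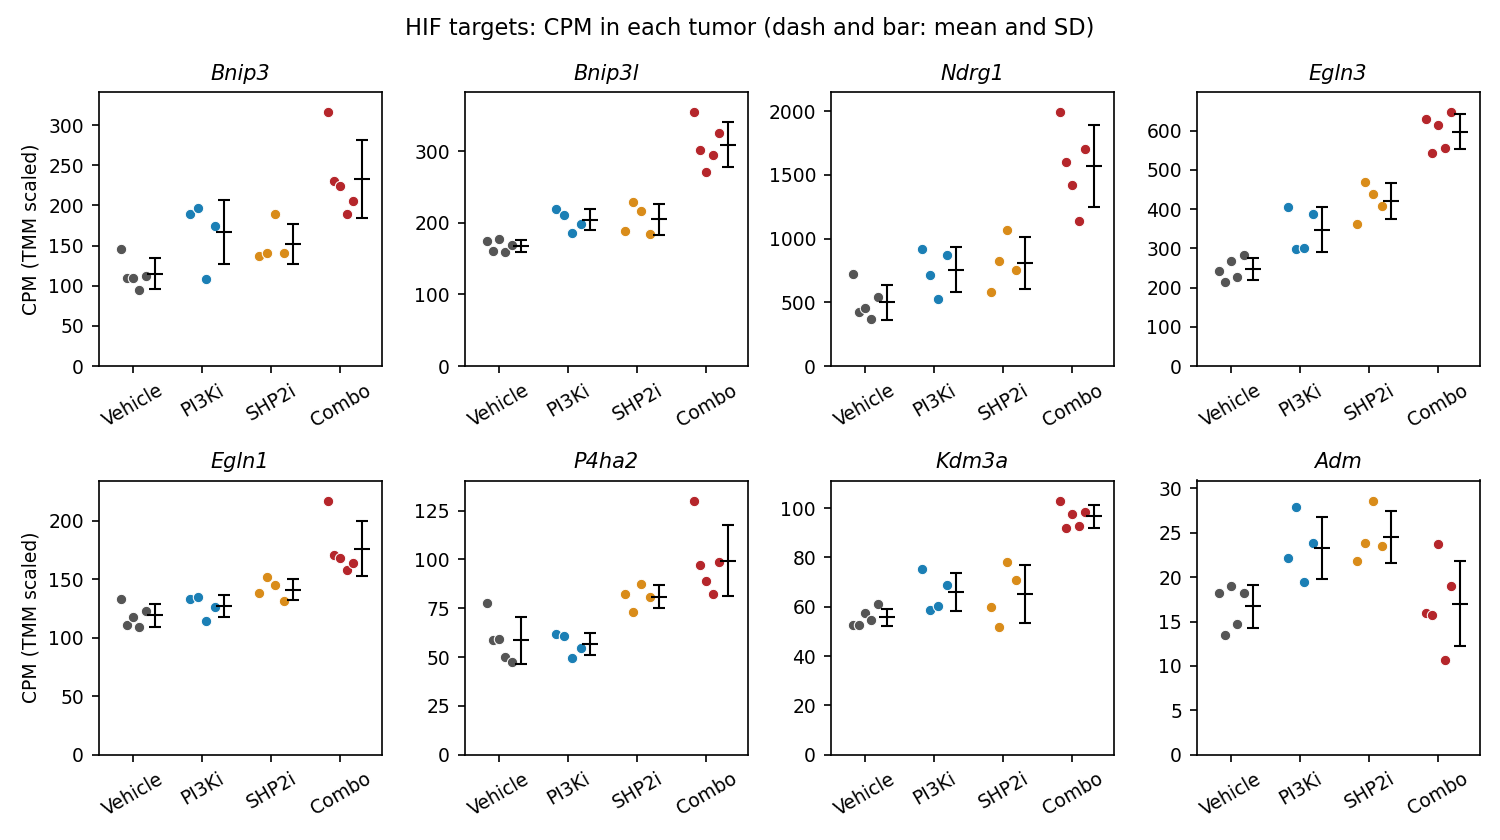
CPM of 8 HIF targets in each of the 18 tumors by group, with each point a tumor and the dash and bar the mean ± SD. Egln3 climbs from 247 CPM in Vehicle to 598 in Combo, and the mean of Adm is higher with either single inhibitor than in Vehicle or Combo.

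The collagen enzymes split within the family. P4ha1 and P4ha2 encode the catalytic subunits of collagen prolyl 4-hydroxylase, and Plod2 encodes a collagen lysyl hydroxylase that sets cross-links. P4ha1, the higher of the pair, was at 256, 238, 228, 239 and 232 CPM in the Vehicle tumors, 300, 259, 217 and 231 in PI3Ki, 211, 241, 277 and 260 in SHP2i and 325, 274, 241, 232 and 231 in Combo. The groups overlapped throughout and no difference from Vehicle passed (Combo log2 fold change 0.13, adjusted p = 0.348, 95% interval -0.10 to 0.35). P4ha2 was at 77.8, 58.6, 59, 49.8 and 47.5 CPM in the Vehicle tumors, 61.7, 60.9, 49.4 and 54.6 in PI3Ki, 82.2, 73, 87.6 and 80.8 in SHP2i and 130, 96.9, 88.9, 82.3 and 98.8 in Combo. Here every Combo tumor lay above every Vehicle tumor, SHP2i overlapped with Vehicle replicate 1 alone, and PI3Ki lay within the Vehicle range.

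P4ha2 was 1.7-fold higher in Combo (log2 fold change 0.76, SE 0.132, adjusted p = 0.000219) and 1.38-fold higher in SHP2i (log2 fold change 0.47, SE 0.139, adjusted p = 0.0371), with -0.05 on the log2 scale in PI3Ki (adjusted p = 0.909). The SHP2i call was lost without Vehicle 2, 3, 4 or 5, PI3Ki 5 or SHP2i 2, 4 or 5 (log2 fold change 0.40 to 0.47, adjusted p = 0.0522 to 0.115). The ratio of P4ha2 to P4ha1 within a tumor rose in Combo by 0.65 on the log2 scale (exact permutation p = 0.00794, adjusted p = 0.0212). In SHP2i it was higher by 0.44 (exact p = 0.0238, adjusted p = 0.0571) and in PI3Ki lower by a log2 difference of -0.10 (exact p = 0.492).

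Plod2 was at 94.9, 70.6, 69.2, 66.3 and 67.4 CPM in the Vehicle tumors, 102, 84.3, 78.3 and 77.2 in PI3Ki, 111, 77.7, 129 and 101 in SHP2i and 132, 128, 113, 81.2 and 85.3 in Combo. Vehicle replicate 1 stood above the other Vehicle tumors and inside the ranges of all treated groups. Plod2 rose 1.47-fold in Combo (log2 fold change 0.55, SE 0.157, adjusted p = 0.0093), and with the endothelial covariate the value was 0.07. In SHP2i it narrowly missed (log2 fold change 0.51, adjusted p = 0.0557), and it passed without Vehicle 1, SHP2i 3 or Combo 1, 4 or 5 (log2 fold change 0.51 to 0.62, adjusted p = 0.0282 to 0.048). The summed level of 14 fibroblast genes, which include collagens that these enzymes act on, was 2750 to 5960 CPM in Combo, 5640 to 13000 in SHP2i, 5160 to 16300 in PI3Ki and 4320 to 7340 in Vehicle. Its highest genes in Vehicle were Col1a1, Col1a2 and Col3a1 (means 1420, 1220 and 1790 CPM, and 563, 521 and 891 in Combo). The list was mixed in Combo, with 4 genes called lower and 2 higher. Those higher were Pdgfra (log2 fold change 1.66, adjusted p = 1.26e-05) and Dcn (log2 fold change 1.39, adjusted p = 0.000267). The part of the fibroblast genes in the values of P4ha1, P4ha2 and Plod2 was not tested.

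Another 4 members act on chromatin or transcription. Kdm3a, a histone H3 lysine demethylase that itself needs oxygen, was at 52.7, 52.6, 57.3, 54.7 and 61.1 CPM in the Vehicle tumors, 75.5, 58.7, 60.5 and 69 in PI3Ki, 59.8, 51.6, 78.3 and 70.8 in SHP2i and 103, 92, 97.7, 92.6 and 98.6 in Combo. Combo tumors were tightly grouped and wholly above every other tumor. Kdm3a rose 1.74-fold in Combo (log2 fold change 0.80, SE 0.0978, adjusted p = 9.75e-06), and did not pass in PI3Ki (log2 fold change 0.24, adjusted p = 0.198) or SHP2i (log2 fold change 0.23, adjusted p = 0.155). With the endothelial covariate the Combo value was 0.40.

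Mxi1, a repressor that competes with MYC for its partner MAX, was at 56.6, 45.5, 55.9, 43.6 and 53.7 CPM in the Vehicle tumors, 85.2, 80.7, 70.2 and 88.4 in PI3Ki, 48.8, 56, 63.5 and 57.2 in SHP2i and 90.6, 77.1, 73.1, 91 and 96.4 in Combo. Here PI3Ki and Combo lay wholly above Vehicle and shared a range, and SHP2i overlapped with Vehicle. Mxi1 was 1.59-fold higher in PI3Ki (log2 fold change 0.67, SE 0.106, adjusted p = 0.000932) and 1.68-fold higher in Combo (log2 fold change 0.75, SE 0.101, adjusted p = 2.47e-05), with 0.14 on the log2 scale in SHP2i (adjusted p = 0.391). SHP2i against PI3Ki differed by -0.53 on the log2 scale (adjusted p = 0.00313). All 18 fits that left out a tumor kept the call in PI3Ki.

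Bhlhe40, a clock-linked repressor, was at 130, 98, 116, 110 and 164 CPM in the Vehicle tumors, 204, 166, 137 and 180 in PI3Ki, 167, 203, 230 and 174 in SHP2i and 215, 175, 222, 172 and 168 in Combo. All treated groups overlapped with each other, and Vehicle replicate 5 reached into the lower part of PI3Ki. It rose 1.57-fold in SHP2i (log2 fold change 0.65, SE 0.149, adjusted p = 0.00993) and 1.54-fold in Combo (log2 fold change 0.62, SE 0.142, adjusted p = 0.00202). In PI3Ki it did not pass (log2 fold change 0.48, adjusted p = 0.0753) but did with DESeq2 (adjusted p = 0.0382) and without Vehicle 5 or PI3Ki 3 (log2 fold change 0.57 to 0.60, adjusted p = 0.0204 to 0.0367). Ankrd37, an ankyrin repeat protein at a low level, ranged over 7.75 to 11 CPM in Vehicle, 8.7 to 15.7 in PI3Ki, 7.07 to 9.62 in SHP2i and 7.3 to 12.5 in Combo. It passed in no comparison with Vehicle and did so in PI3Ki without PI3Ki 3 (log2 fold change 0.64, adjusted p = 0.0261), the replicate that lay within the Vehicle range.

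Ndrg1, a stress-induced cytoplasmic protein long used as a readout of hypoxia, gave the widest change of the HIF targets in Combo. Its values were 721, 428, 457, 366 and 539 CPM in the Vehicle tumors, 915, 716, 526 and 868 in PI3Ki, 584, 822, 1070 and 750 in SHP2i and 1990, 1600, 1420, 1140 and 1700 in Combo. Every Combo tumor lay above every tumor of the other groups, and Vehicle replicate 1 lay within the PI3Ki and SHP2i ranges. Ndrg1 was 3.13-fold higher in Combo (log2 fold change 1.65, SE 0.209, adjusted p = 1.41e-05) and 1.61-fold higher in SHP2i (log2 fold change 0.68, SE 0.215, adjusted p = 0.048). The PI3Ki value was similar in size but did not pass (log2 fold change 0.59, adjusted p = 0.131). The SHP2i call was lost without Vehicle 2, 3, 4 or 5, PI3Ki 1, 2 or 5, SHP2i 3, 4 or 5 or Combo 2 or 3 (log2 fold change 0.50 to 0.71, adjusted p = 0.0501 to 0.182), and with upper quartile scaling, no filter on low counts or any of the 3 covariates (adjusted p up to 0.134).

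Ddit4 and Adm had larger log2 fold changes with either inhibitor alone than with both, and only those of Ddit4 passed. Ddit4 encodes REDD1, an inhibitor of mTOR complex signaling induced by hypoxia and other stress, and was at 109, 96, 125, 93.1 and 97.2 CPM in the Vehicle tumors, 216, 161, 117 and 156 in PI3Ki, 178, 148, 200 and 128 in SHP2i and 149, 122, 123, 138 and 126 in Combo. Of the 8 tumors given a single inhibitor, 5 were above all Combo tumors, and Combo overlapped with Vehicle. It rose 1.56-fold in PI3Ki (log2 fold change 0.64, SE 0.151, adjusted p = 0.0188) and 1.57-fold in SHP2i (log2 fold change 0.65, SE 0.151, adjusted p = 0.0106) but did not pass in Combo (log2 fold change 0.34, SE 0.144, adjusted p = 0.0647). The PI3Ki call was lost without Vehicle 4 or PI3Ki 1 (log2 fold change 0.48 to 0.61, adjusted p = 0.0576 to 0.0789) and with the endothelial covariate (log2 fold change 0.54, adjusted p = 0.122), and the SHP2i call without SHP2i 4 (log2 fold change 0.52, adjusted p = 0.0518). In Combo the test was passed without Vehicle 3 or PI3Ki 1 or 3 (log2 fold change 0.34 to 0.41, adjusted p = 0.0361 to 0.0376) and with only both groups in the fit (adjusted p = 0.0193).

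Adm, the precursor of the vessel-dilating peptide adrenomedullin, was at 18.2, 13.5, 19, 14.7 and 18.2 CPM in the Vehicle tumors, 22.1, 27.9, 19.5 and 23.8 in PI3Ki, 21.8, 23.9, 28.6 and 23.5 in SHP2i and 16, 15.7, 23.7, 10.7 and 19 in Combo. Both single inhibitors lay wholly above Vehicle, and Combo reached beyond both ends of the Vehicle range. Its log2 fold change was 0.48 in PI3Ki (SE 0.176, adjusted p = 0.133), 0.55 in SHP2i (SE 0.176, adjusted p = 0.052) and 0.03 in Combo (SE 0.168, adjusted p = 0.914). In SHP2i it passed with DESeq2 (adjusted p = 0.0261) and without PI3Ki 2 or Combo 3 or 4 (log2 fold change 0.54 to 0.55, adjusted p = 0.0238 to 0.0494), and in PI3Ki with the endothelial covariate (log2 fold change 0.75, adjusted p = 0.0373). Stc2, a secreted glycoprotein, ranged over 5.36 to 18.2 CPM in Vehicle, 2.56 to 15 in PI3Ki, 6.87 to 38 in SHP2i and 7.26 to 31.6 in Combo and passed in no comparison with Vehicle.

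The interaction term asked whether Combo differed from the sum of both single effects on the log2 scale. It was called for 2 of 17 HIF targets, both lower, where 2.47% of all genes were called, 0.864% higher and 1.61% lower. The term was -0.95 for Ddit4 (SE 0.214, adjusted p = 0.0277) and -1.0 for Adm (SE 0.249, adjusted p = 0.0421). The Ddit4 call was lost without Vehicle 4 or 5 or SHP2i 2 or 4 (interaction term -0.93 to -0.84, adjusted p = 0.0549 to 0.0711), without Combo replicates 3 and 4 together (adjusted p = 0.0532) and with each covariate. The Adm call was lost without Vehicle 1, 2, 3, 4 or 5, PI3Ki 1, 2 or 5, SHP2i 2, 3, 4 or 5 or Combo 2, 4 or 5 (interaction term -1.06 to -0.88, adjusted p = 0.0509 to 0.104) and with each covariate, the value being -0.38 with the endothelial genes. No glycolysis gene passed (2 at an unadjusted p under 0.05), and DESeq2 called 1, Slc16a3 (interaction term -1.40, adjusted p = 0.102 in edgeR, adjusted p = 0.0333 in DESeq2). Egln3, Bnip3 and Ndrg1, the 3 HIF targets with the largest rises in Combo, had interaction terms of 0.01, 0.07 and 0.37, none of which passed (95% intervals -0.32 to 0.35, -0.46 to 0.60 and -0.28 to 1.02).

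Glycolysis begins with glucose uptake and phosphorylation. Slc2a1, which encodes the glucose transporter GLUT1, was at 215, 159, 177, 161 and 214 CPM in the Vehicle tumors, 240, 237, 172 and 208 in PI3Ki, 157, 175, 238 and 194 in SHP2i and 259, 230, 199, 186 and 207 in Combo. The groups overlapped and none passed (Combo log2 fold change 0.22, SE 0.131, adjusted p = 0.186, 95% interval -0.06 to 0.50). Hk2, the hexokinase that tumors and hypoxia induce, was at 131, 87.6, 125, 132 and 140 CPM in the Vehicle tumors, 175, 139, 132 and 143 in PI3Ki, 119, 151, 163 and 160 in SHP2i and 227, 197, 182, 188 and 203 in Combo. Combo tumors lay wholly above all others, and Vehicle replicate 2 was well below its group. Hk2 rose 1.62-fold in Combo (log2 fold change 0.70, SE 0.12, adjusted p = 0.000218).

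Hk1, the hexokinase of most resting tissues, was at 160, 143, 158, 179 and 190 CPM in the Vehicle tumors, 203, 168, 192 and 183 in PI3Ki, 156, 215, 186 and 186 in SHP2i and 221, 213, 186, 220 and 201 in Combo, with the lowest Combo tumor inside the Vehicle range. It rose 1.25-fold in Combo (log2 fold change 0.33, SE 0.0919, adjusted p = 0.00882), and with the neutrophil covariate its value was 0.12 (adjusted p = 0.699). Hk2 moved further than Hk1. The log2 ratio of Hk2 to Hk1 was higher by 0.38 in Combo (exact permutation p = 0.00794, adjusted p = 0.0212), while PI3Ki (0.09) and SHP2i (0.12) did not pass. The neutrophil covariate also ended the Hk2 call (log2 fold change 0.61, adjusted p = 0.0794).

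The upper steps turn glucose phosphate into triose phosphates. Pfkl, the liver-type phosphofructokinase that commits sugar to the pathway, was at 389, 349, 338, 356 and 370 CPM in the Vehicle tumors, 492, 400, 361 and 387 in PI3Ki, 384, 487, 424 and 424 in SHP2i and 601, 578, 475, 557 and 524 in Combo. All Combo tumors were above all Vehicle tumors, and SHP2i replicate 3 and PI3Ki replicate 1 reached the lowest Combo value. Pfkl rose 1.52-fold (log2 fold change 0.60, SE 0.0908, adjusted p = 6.89e-05). Its platelet-type partner Pfkp was at 184, 165, 176, 185 and 203 CPM in the Vehicle tumors, 201, 202, 198 and 212 in PI3Ki, 180, 204, 208 and 173 in SHP2i and 263, 228, 196, 198 and 192 in Combo, with 3 Combo tumors inside the upper Vehicle range, and rose 1.18-fold (log2 fold change 0.24, SE 0.0875, adjusted p = 0.034).

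The Pfkp call was lost without Vehicle 1, 2, 3 or 4, PI3Ki 2 or 5, SHP2i 2 or Combo 1 or 2 (log2 fold change 0.16 to 0.25, adjusted p = 0.0516 to 0.12), and with 6 other settings, among them upper quartile scaling (log2 fold change 0.19, adjusted p = 0.0877). The ratio of Pfkl to Pfkp rose by 0.36 on the log2 scale in Combo (exact permutation p = 0.00794, adjusted p = 0.0212). Pfkp shares 748 exon bases with Pitrm1 on the opposite strand. Gpi1, the phosphoglucose isomerase, was at 507, 485, 472, 506 and 537 CPM in the Vehicle tumors, 669, 613, 502 and 549 in PI3Ki, 493, 565, 586 and 552 in SHP2i and 642, 605, 600, 633 and 691 in Combo, with no Combo tumor overlapping with Vehicle, and rose 1.26-fold (log2 fold change 0.34, SE 0.0794, adjusted p = 0.00257).

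Aldoa, the aldolase that splits the sugar, was at 1320, 1300, 1200, 1260 and 1310 CPM in the Vehicle tumors, 1790, 1730, 1250 and 1380 in PI3Ki, 1300, 1510, 1520 and 1520 in SHP2i and 1710, 1570, 1480, 1610 and 1650 in Combo. Combo lay above all Vehicle tumors, and PI3Ki had 2 tumors above the Combo range and 2 below it. It rose 1.25-fold in Combo (log2 fold change 0.33, SE 0.093, adjusted p = 0.00916), and it passed in PI3Ki without PI3Ki 3 (log2 fold change 0.35, adjusted p = 0.0337). Tpi1, the triose phosphate isomerase, ranged over 605 to 697 CPM in Vehicle, 573 to 801 in PI3Ki, 653 to 847 in SHP2i and 666 to 984 in Combo and did not pass in Combo (log2 fold change 0.28, adjusted p = 0.0579), but passed without PI3Ki 3, SHP2i 3 or Combo 3 or 5 (log2 fold change 0.28 to 0.33, adjusted p = 0.029 to 0.0441). The neutrophil covariate ended the Combo calls of Gpi1 (log2 fold change 0.32, adjusted p = 0.17) and Aldoa (log2 fold change 0.44, adjusted p = 0.097).

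The 2 bifunctional enzymes that make and break fructose 2,6-bisphosphate, the activator of phosphofructokinase, went apart. Pfkfb3 was at 69.1, 67.2, 87.2, 96.5 and 109 CPM in the Vehicle tumors, 82.4, 113, 88.1 and 87.2 in PI3Ki, 70.6, 84.9, 95.3 and 111 in SHP2i and 93.8, 98.1, 113, 94.8 and 109 in Combo, with all groups overlapping, and did not pass (Combo log2 fold change 0.25, adjusted p = 0.167, 95% interval -0.05 to 0.54). Pfkfb4 was at 18.2, 21.6, 19.2, 20 and 22.3 CPM in the Vehicle tumors, 20.5, 28.1, 18.9 and 17 in PI3Ki, 13, 7.62, 14.2 and 10.5 in SHP2i and 9.67, 9.43, 9.3, 6.39 and 7.53 in Combo. All SHP2i and Combo tumors lay below all Vehicle tumors, and PI3Ki reached both sides of the Vehicle range. Pfkfb4 fell to 0.559 of the Vehicle level in SHP2i (log2 fold change -0.84, SE 0.179, adjusted p = 0.00624) and to 0.418 in Combo (log2 fold change -1.26, SE 0.169, adjusted p = 2.38e-05).

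The ratio of Pfkfb4 to Pfkfb3 fell by 0.95 on the log2 scale in SHP2i and by 1.54 in Combo (exact permutation p = 0.00794 each, adjusted p = 0.0212). With the neutrophil covariate the Pfkfb4 call was lost in SHP2i (log2 fold change -0.55, adjusted p = 0.0664) and in Combo (log2 fold change -0.69, adjusted p = 0.0781). The neutrophil genes summed to 585 to 791 CPM in Vehicle, 914 to 3380 in PI3Ki, 390 to 610 in SHP2i and 430 to 703 in Combo. Of 18 tested neutrophil genes 12 were lower and 1 higher in Combo, and 3 were lower in SHP2i. The median log2 fold change of the 18 was -2.72 in Combo and -1.04 in SHP2i. The covariate, a mean of log2 levels, thus moved with the treatment although the sums overlapped with those of Vehicle.

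**Figure D4:**
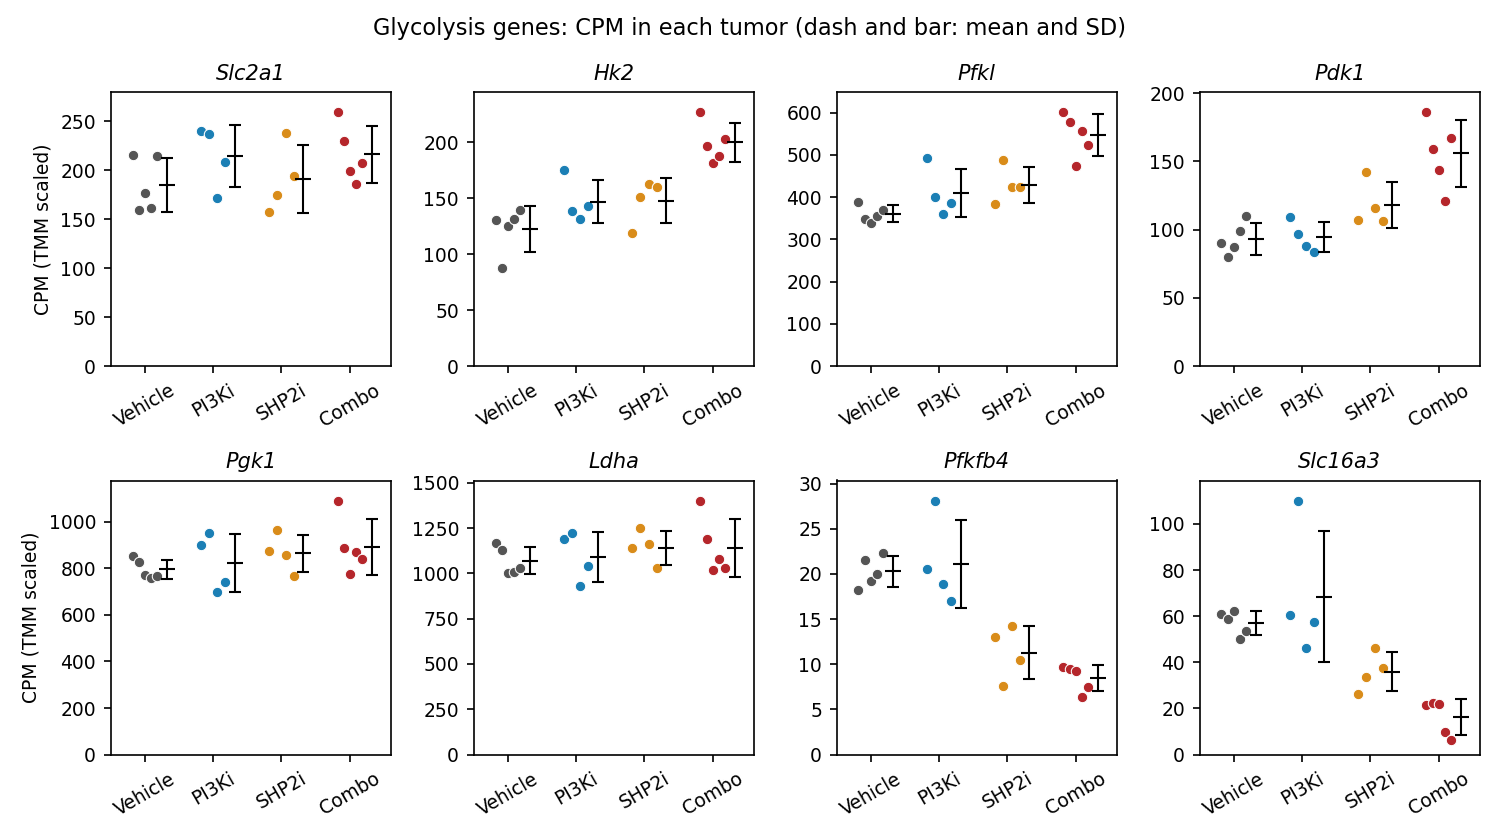
CPM of 8 glycolysis genes in each of the 18 tumors by group, with each point a tumor and the dash and bar the mean ± SD. Hk2, Pfkl and Pdk1 are highest in Combo, Pgk1 and Ldha overlap across groups, and Pfkfb4 and Slc16a3 fall through SHP2i to Combo.

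The lower steps, which regain ATP and end in pyruvate, were among the highest genes, and of the 4 members there only Pgam1 passed the test against Vehicle. Pkm, the pyruvate kinase, was at 2210, 2130, 2020, 2100 and 2180 CPM in the Vehicle tumors, 2480, 2430, 2100 and 2240 in PI3Ki, 2060, 2290, 2240 and 2000 in SHP2i and 2500, 2170, 1920, 2130 and 1980 in Combo. Combo and Vehicle overlapped, and the log2 fold change was 0.01 (SE 0.0814, 95% interval -0.16 to 0.18, adjusted p = 0.95). Pgk1, the phosphoglycerate kinase, ranged over 757 to 852 CPM in Vehicle, 697 to 952 in PI3Ki, 769 to 964 in SHP2i and 774 to 1090 in Combo, with log2 fold change 0.17, adjusted p = 0.204 in Combo. Eno1, the enolase, ranged over 1180 to 1400 CPM in Vehicle, 1330 to 1460 in PI3Ki, 1300 to 1580 in SHP2i and 1260 to 1580 in Combo, with log2 fold change 0.16, adjusted p = 0.108 in Combo, and passed without Combo 3 (log2 fold change 0.21, adjusted p = 0.0339).

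Pgam1, the phosphoglycerate mutase, was at 597, 592, 542, 536 and 580 CPM in the Vehicle tumors, 630, 623, 509 and 546 in PI3Ki, 614, 683, 646 and 590 in SHP2i and 780, 721, 582, 640 and 605 in Combo. The top Vehicle tumor lay above the lowest Combo tumor. It passed in Combo at 1.17-fold (log2 fold change 0.23, SE 0.0879, adjusted p = 0.0467), the smallest change called there, and the call was lost without Vehicle 1, 2, 3, 4 or 5, PI3Ki 2 or 5, SHP2i 2, 4 or 5 or Combo 1 or 2 (log2 fold change 0.16 to 0.23, adjusted p = 0.0601 to 0.123) and with 7 other settings, among them RLE size factors (log2 fold change 0.21, adjusted p = 0.0616). These genes have close copies: 52.77% of the stretches of 75 bases of Pgk1, 34.9% of Pgam1, 23.0% of Eno1 and 17.77% of Pkm also occur elsewhere. Their counts are uncertain for that reason. These are shares of sequence, and the share of reads that could belong to a copy was not measured.

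Pyruvate is either reduced to lactate and exported or burned in mitochondria. Ldha, the lactate dehydrogenase subunit that favors lactate, was at 1170, 1130, 1000, 1010 and 1030 CPM in the Vehicle tumors, 1190, 1220, 928 and 1040 in PI3Ki, 1140, 1250, 1160 and 1030 in SHP2i and 1400, 1190, 1020, 1080 and 1030 in Combo. The groups overlapped, and the log2 fold change in Combo was 0.10 (SE 0.1, 95% interval -0.11 to 0.31, adjusted p = 0.442). Pdk1, the kinase that closes the mitochondrial entry of pyruvate, was at 90.1, 80.1, 87, 99.2 and 110 CPM in the Vehicle tumors, 109, 96.7, 88.1 and 83.7 in PI3Ki, 107, 142, 116 and 106 in SHP2i and 186, 159, 144, 121 and 167 in Combo. All Combo tumors lay above the Vehicle tumors and above PI3Ki, and SHP2i replicate 3 reached into the Combo range. Pdk1 rose 1.67-fold in Combo (log2 fold change 0.74, SE 0.119, adjusted p = 0.000126), with 1.21 under the endothelial covariate, where the call held, and log2 fold change 0.64, adjusted p = 0.0559 under the neutrophil covariate, where it was lost.

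Slc16a3, which encodes the lactate exporter MCT4 and is a textbook HIF target, fell in Combo, as Pfkfb4 did. Its values were 61.1, 58.7, 62.3, 49.9 and 53.4 CPM in the Vehicle tumors, 60.3, 110, 46.3 and 57.4 in PI3Ki, 26.4, 33.8, 46.2 and 37.6 in SHP2i and 21.4, 22.5, 21.9, 9.59 and 6.55 in Combo. Every SHP2i and Combo tumor lay below every Vehicle tumor, PI3Ki replicate 2 was above all others, and Combo replicates 4 and 5 were lowest. Slc16a3 fell to 0.287 of the Vehicle level in Combo (log2 fold change -1.80, SE 0.3, adjusted p = 0.000164). In SHP2i it did not pass with all groups in the fit (log2 fold change -0.67, SE 0.31, adjusted p = 0.163) and did with only both groups in it (log2 fold change -0.68, adjusted p = 0.00729). Its ratio to Slc16a1, the broadly expressed lactate transporter, fell by 0.78 on the log2 scale in SHP2i and by 2.05 in Combo (exact permutation p = 0.00794 each, adjusted p = 0.0212).

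Slc16a3 and Pfkfb4 moved beside leukocyte genes in some tumors and not in others. PI3Ki replicate 2, with the highest Slc16a3 (110 CPM) and Pfkfb4 (28.1 CPM), also had the highest sum of the 19 neutrophil genes (3380 CPM) and of the 19 macrophage genes (11500 CPM). The neutrophil sums of PI3Ki replicates 1, 3 and 5 (1210, 914 and 1130 CPM) were above every Vehicle tumor too. Their Slc16a3 (60.3, 46.3 and 57.4 CPM) and Pfkfb4 (20.5, 18.9 and 17 CPM) were not above the Vehicle range. Combo replicate 3 had a neutrophil sum inside the Vehicle range (703 CPM), with both genes below every Vehicle tumor. Across the groups the median macrophage sum was 6250 CPM in Vehicle, 6120 in PI3Ki, 2550 in SHP2i and 1770 in Combo. Combo replicates 2 and 3 (3960 and 3910 CPM) and SHP2i replicate 4 (3900 CPM) had similar macrophage sums. Slc16a3 was 22.5 and 21.9 CPM in those Combo tumors and 46.2 in that SHP2i tumor, and Pfkfb4 was 9.43, 9.3 and 14.2 CPM. With the neutrophil covariate Slc16a3 in Combo was at -0.53 (adjusted p = 0.355), and with the endothelial covariate at -1.02 (adjusted p = 0.534). The part of leukocytes in the fall of both genes was not tested beyond these values.

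**Figure D5:**
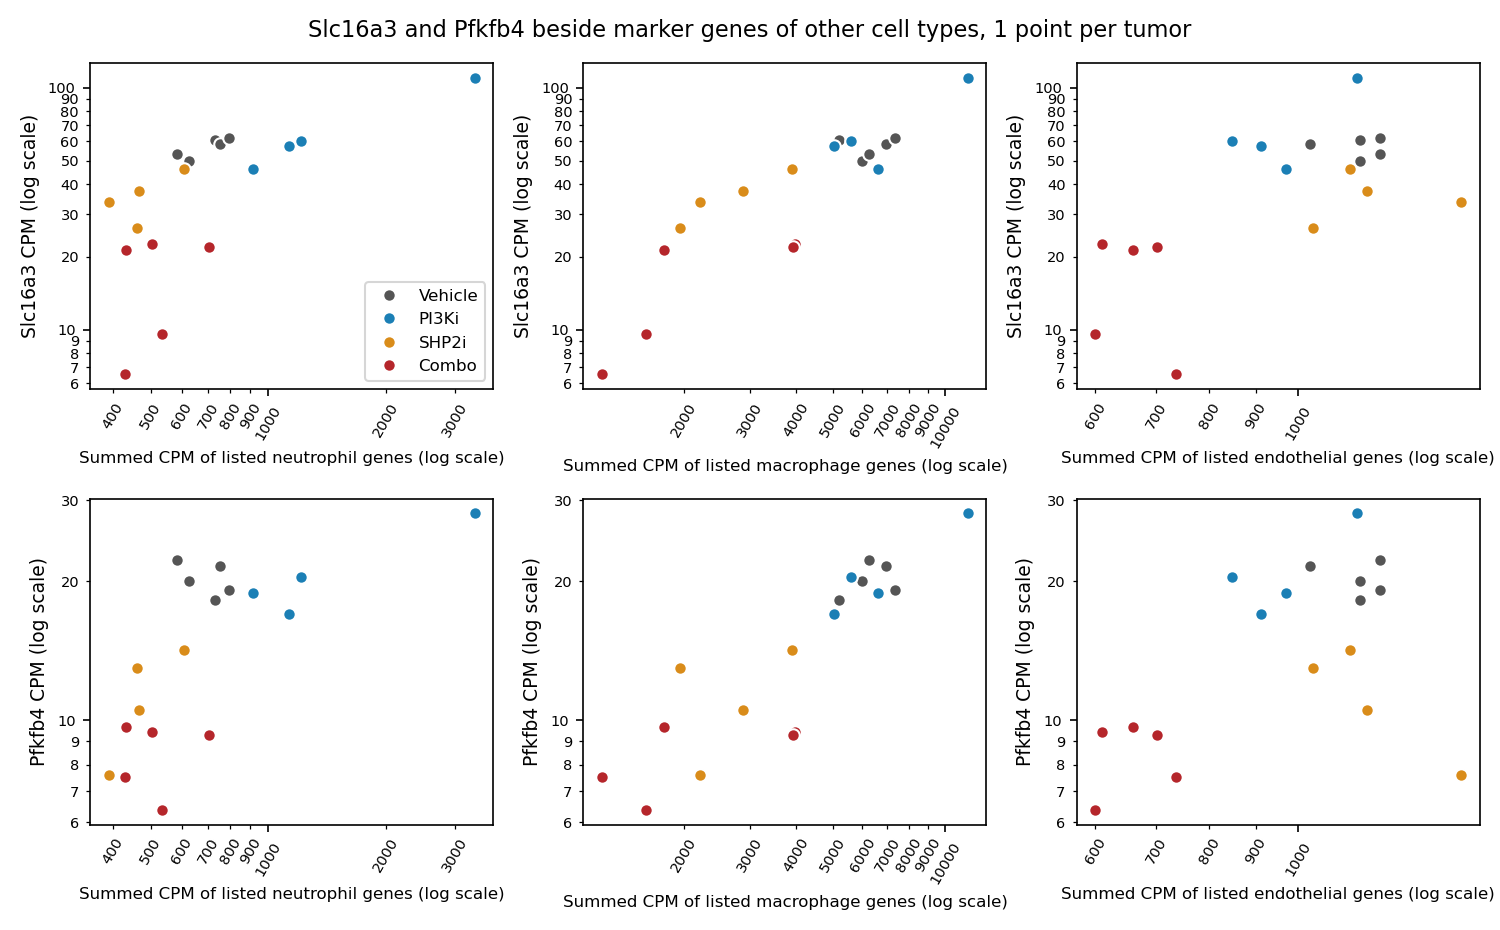
CPM of Slc16a3 and Pfkfb4 in the 18 tumors against the summed CPM of listed neutrophil, macrophage and endothelial genes, on log axes, with colors for the groups. In the macrophage panels Combo tumors lie low, with replicates 1, 4 and 5 at the left (1770, 1590 and 1210 CPM) and replicates 2 and 3 further right (3960 and 3910 CPM). PI3Ki replicate 2 lies at the upper right of the neutrophil panels.

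Combo was then set against each inhibitor alone, which asks what the second drug added. These comparisons share tumors with those above. Against PI3Ki, 8 HIF targets and 3 glycolysis genes were higher and 2 glycolysis genes lower. These 13 of 34 (38.2%) were near the 37.7% of all genes called (19.9% higher and 17.8% lower). By set, 47.1% of the HIF targets and 29.4% of the glycolysis genes were called. Kdm3a (log2 fold change 0.55, adjusted p = 0.000613), Egln1 (log2 fold change 0.47, adjusted p = 0.000919), P4ha2 (log2 fold change 0.81, adjusted p = 0.000341), Egln3 (log2 fold change 0.78, adjusted p = 7.74e-05), Bnip3l (log2 fold change 0.60, adjusted p = 6.72e-05) and Ndrg1 (log2 fold change 1.05, adjusted p = 0.00144) were higher, and Slc16a3 (log2 fold change -2.06, adjusted p = 0.000105) and Pfkfb4 (log2 fold change -1.32, adjusted p = 3.45e-05) were lower. Hk2, Pfkl and Pdk1 were the 3 glycolysis genes called higher (log2 fold changes 0.44, 0.42 and 0.72). The calls of Bnip3, Ak4 and Hk2 were lost without a tumor: Bnip3 without Vehicle 2 or 3, PI3Ki 3 or 5, SHP2i 2 or 5 or Combo 1 or 2 (log2 fold change 0.32 to 0.49, adjusted p = 0.0508 to 0.131), Ak4 without PI3Ki 3 (log2 fold change 0.42, adjusted p = 0.0611) and Hk2 without PI3Ki 2 (log2 fold change 0.38, adjusted p = 0.0532). Adm was called lower without PI3Ki 3, SHP2i 4 or Combo 3 (log2 fold change -0.60 to -0.47, adjusted p = 0.00817 to 0.0477), as were Ankrd37 and Ddit4 without PI3Ki 3 (log2 fold change -0.52 and -0.43, adjusted p = 0.0182 and 0.0245), and Pgam1 was called higher without Combo 3 (log2 fold change 0.25, adjusted p = 0.0406). All 13 were lost with the muscle or the neutrophil covariate and 8 with the endothelial one. The neutrophil sums of PI3Ki (914 to 3380 CPM) and Combo (430 to 703) did not overlap, nor did the muscle sums.

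Against SHP2i, 7 HIF targets were higher and 1 lower, and 3 glycolysis genes were higher and 1 lower (12 of 34, with 22.1% of all genes called, 11.8% higher and 10.3% lower). Ndrg1 (log2 fold change 0.96, adjusted p = 0.00589), Bnip3 (log2 fold change 0.62, adjusted p = 0.0212), Mxi1 (log2 fold change 0.60, adjusted p = 0.00106), Bnip3l (log2 fold change 0.59, adjusted p = 0.00027), Kdm3a (log2 fold change 0.57, adjusted p = 0.00119), Egln3 (log2 fold change 0.51, adjusted p = 0.00487) and Egln1 (log2 fold change 0.31, adjusted p = 0.0227) were the HIF targets that were higher. Adm was lower (log2 fold change -0.52, adjusted p = 0.0421), and its value turned to 0.38 with the endothelial covariate (adjusted p = 0.751). Hk2 (0.43), Pfkl (0.35) and Pdk1 (0.40) were the glycolysis genes that were higher on the log2 scale, and Slc16a3 (-1.13) was the one that was lower. With the endothelial covariate none of the 12 calls held, and the SHP2i and Combo endothelial sums (1040 to 1510 and 600 to 736 CPM) did not overlap.

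Several of these calls rested on a tumor. Bnip3 was lost without SHP2i 2 or 5 (log2 fold change 0.56 to 0.58, adjusted p = 0.0601 to 0.071), Egln1 without SHP2i 2 or 5 (log2 fold change 0.27 to 0.29, adjusted p = 0.067 to 0.0731) and Adm without PI3Ki 5, SHP2i 2, 3, 4 or 5 or Combo 1, 2, 4 or 5 (log2 fold change -0.58 to -0.39, adjusted p = 0.0503 to 0.127). Among the glycolysis genes, Hk2 was lost without SHP2i 2 or Combo 1 (log2 fold change 0.33 to 0.38, adjusted p = 0.0539 to 0.0939), Pfkl without SHP2i 2 (log2 fold change 0.29, adjusted p = 0.068), Pdk1 without SHP2i 2, 4 or 5 or Combo 1 or 5 (log2 fold change 0.33 to 0.39, adjusted p = 0.0684 to 0.0947) and Slc16a3 without SHP2i 4 (log2 fold change -0.99, adjusted p = 0.0548). Pfkfb4, which did not pass here with all tumors, was called lower without SHP2i 3 (log2 fold change -0.56, adjusted p = 0.0274). Bnip3l, Ndrg1, Egln3, Kdm3a and Mxi1 kept their call in all 18 fits that left out a tumor.

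SHP2i and PI3Ki differed in 6 of the 34 (17.6%), below the 24.5% of all genes called (11.6% higher and 12.8% lower). P4ha2 (log2 fold change 0.51, adjusted p = 0.0178) and Stc2 (log2 fold change 1.88, adjusted p = 0.0298) were higher in SHP2i, and Mxi1 (log2 fold change -0.53, adjusted p = 0.00313), Ankrd37 (log2 fold change -0.65, adjusted p = 0.0187), Pfkfb4 (log2 fold change -0.90, adjusted p = 0.00256) and Slc16a3 (log2 fold change -0.93, adjusted p = 0.0458) were lower. None of the 6 held with the muscle covariate, and Slc16a3 turned to 0.55 (adjusted p = 0.783) there and to 0.24 (adjusted p = 0.66) with the neutrophil covariate. Slc16a3 was also lost without Vehicle 1, 2, 3, 4 or 5, PI3Ki 1, 2 or 5 or SHP2i 2, 3 or 5 (log2 fold change -1.01 to -0.61, adjusted p = 0.0532 to 0.188), Stc2 without PI3Ki 1 or 2 or SHP2i 2, 3 or 5 (log2 fold change 1.60 to 1.82, adjusted p = 0.0544 to 0.0892), Ankrd37 without PI3Ki 2 or SHP2i 5 (log2 fold change -0.59 to -0.56, adjusted p = 0.0566 to 0.0613) and P4ha2 without SHP2i 4 (log2 fold change 0.46, adjusted p = 0.0531).

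The HIF subunits and their regulators were listed apart from their targets. Of 12 tested genes of this machinery none passed in PI3Ki (1 at an unadjusted p under 0.05, and 0 with DESeq2), 2 rose in SHP2i and 5 rose in Combo, where 5.05% and 23.9% of all genes were called higher. None of the 5 calls in Combo held with the neutrophil or the endothelial covariate. Hif1a, the main oxygen-controlled subunit, was at 267, 242, 271, 289 and 291 CPM in the Vehicle tumors, 256, 319, 280 and 210 in PI3Ki, 353, 437, 402 and 336 in SHP2i and 348, 371, 313, 333 and 258 in Combo. SHP2i lay wholly above Vehicle, and Combo overlapped with both. Hif1a rose 1.4-fold in SHP2i (log2 fold change 0.49, SE 0.12, adjusted p = 0.0145) and was at 0.25 in Combo (adjusted p = 0.0793). Epas1, the second alpha subunit, did not pass (Combo log2 fold change 0.22, adjusted p = 0.566), and neither did Egln2, the third hydroxylase (log2 fold change 0.04, adjusted p = 0.768), nor Cul2 of the VHL ligase (log2 fold change -0.06, adjusted p = 0.563).

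Arnt, the stable HIF partner, rose in Combo (log2 fold change 0.44, SE 0.0815, adjusted p = 0.000443), as did Arnt2 in SHP2i (log2 fold change 0.88, adjusted p = 0.0385) and in Combo (log2 fold change 0.66, adjusted p = 0.0419). Arnt2 was low, with means of 1.65 CPM in Vehicle, 3.04 in SHP2i and 2.61 in Combo, beside 65.7 for Arnt in Vehicle. Its SHP2i and Combo tumors overlapped with Vehicle. The coactivators Crebbp (log2 fold change 0.78, SE 0.136, adjusted p = 0.000238) and Ep300 (log2 fold change 0.53, SE 0.123, adjusted p = 0.00232) and the asparagine hydroxylase Hif1an (log2 fold change 0.25, SE 0.0771, adjusted p = 0.015) also rose in Combo. Ep300 and Crebbp did not pass in SHP2i (log2 fold change 0.34, adjusted p = 0.0982 and log2 fold change 0.33, adjusted p = 0.139). Hif1a and Arnt2 share exon bases with other genes. Transcript levels of the alpha subunits do not show their protein level, which oxygen sets.

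Of 23 other HIF targets 2 rose in PI3Ki, 6 rose and 3 fell in SHP2i, and 10 rose and 2 fell in Combo. Of all genes 2.69%, 5.05% and 23.9% were called higher and 2.42%, 6.54% and 19.7% lower. With the endothelial covariate 1 of these genes was called higher and 1 lower in Combo, and with the muscle covariate none was called in PI3Ki. Gbe1, the glycogen branching enzyme, was at 30.3 ± 2.42 CPM in Vehicle and 56.7 ± 7.58 in Combo (SD, n = 5 each), and rose in SHP2i (log2 fold change 0.63, adjusted p = 0.00113) and Combo (log2 fold change 0.90, SE 0.1, adjusted p = 3.89e-06). Pgm1, which feeds glucose phosphate to glycogen, rose in SHP2i (log2 fold change 0.36, adjusted p = 0.0305) and Combo (log2 fold change 0.57, adjusted p = 0.000218). Vegfa, the angiogenic ligand and the first gene of this list, was at 104 ± 24.5 CPM in Vehicle and 251 ± 96.8 in Combo, and rose in SHP2i (log2 fold change 0.90, adjusted p = 0.0353) and Combo (log2 fold change 1.27, adjusted p = 0.000708). Car9, a carbonic anhydrase widely used as a mark of hypoxia, did not pass in any of the 3 (Combo log2 fold change 0.40, adjusted p = 0.331).

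Ppfia4 and Cox4i2 were the targets of this list that fell in Combo. Ppfia4, a liprin, averaged 23.9 CPM in Vehicle, 12.9 in PI3Ki, 2.32 in SHP2i and 0.64 in Combo, and fell in SHP2i (log2 fold change -3.36, SE 0.309, adjusted p = 7.06e-06) and Combo (log2 fold change -5.21, SE 0.321, adjusted p = 1.38e-08). Cox4i2, the hypoxia-type subunit of cytochrome oxidase, fell in SHP2i (log2 fold change -1.63, adjusted p = 0.00378) and Combo (log2 fold change -2.34, adjusted p = 2.04e-05). It was low in all groups, with means of 3.22 CPM in Vehicle, 3.08 in PI3Ki, 1.03 in SHP2i and 0.628 in Combo. Ier3 (log2 fold change 1.00, adjusted p = 0.0139) and Tgfa (log2 fold change 0.65, adjusted p = 0.0216) were those called in PI3Ki, and Tgfa was lower in SHP2i (log2 fold change -0.62, adjusted p = 0.0193). Anxa2, the highest of the list, did not change beyond the spread (Combo log2 fold change 0.01, adjusted p = 0.937), and Epo (mean 435 CPM in Vehicle) shares 104 exon bases with Gnb2 on the same strand, so that its value is uncertain.

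Of 20 tested other genes of glycolysis and its branches 4 rose and 1 fell in PI3Ki, and 6 rose and 3 fell in Combo. None passed in SHP2i (7 at an unadjusted p under 0.05, and DESeq2 called 1). Of all genes 2.69% and 23.9% were called higher and 2.42% and 19.7% lower in PI3Ki and Combo. The Combo counts were near these shares. In Combo the neutrophil covariate left 1 called higher and the endothelial covariate 2, with none called lower under either, and in PI3Ki the muscle covariate left none. Those that rose in PI3Ki were the muscle-type enzymes Pfkm (log2 fold change 0.88, adjusted p = 9.31e-05), Pgam2 (log2 fold change 1.76, adjusted p = 0.000139) and Eno3 (log2 fold change 0.42, adjusted p = 0.032) and the kinase Pdk4 (log2 fold change 2.90, adjusted p = 0.000327), in the tumors whose skeletal muscle genes summed to 1030 to 2500 CPM. Muscle content and these 4 genes cannot be told apart there. In Combo, where the muscle sum was 9.03 to 81.3 CPM, Pdk4 (log2 fold change 2.49, adjusted p = 0.000104) and Pdk2 (log2 fold change 1.17, adjusted p = 3.72e-05), which like Pdk1 hold back pyruvate dehydrogenase, both rose.

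Pfkfb2 (log2 fold change 0.54, adjusted p = 0.00133) also rose in Combo, and it shares 1416 exon bases with other genes. Eno2 had the smallest p of the list in SHP2i without passing (log2 fold change 0.86, adjusted p = 0.0798) and rose in Combo (log2 fold change 1.11, adjusted p = 0.00606). Hk3, the hexokinase of myeloid cells, was at 46.9, 63.8, 58.1, 84.9 and 75.1 CPM in the Vehicle tumors, 65.5, 129, 64.6 and 69 in PI3Ki, 14.6, 9.49, 39.6 and 34.1 in SHP2i and 13, 13.3, 17.4, 3.37 and 1.33 in Combo. It fell in Combo (log2 fold change -2.76, SE 0.515, adjusted p = 0.000433), with every Combo tumor below every Vehicle tumor, and did not pass in SHP2i (log2 fold change -1.43, adjusted p = 0.0841). Slc16a7 (log2 fold change -1.39, adjusted p = 0.00985) and Pgd (log2 fold change -0.29, adjusted p = 0.00495), an enzyme of the pentose phosphate branch, fell as well, and Slc16a1 did not pass (log2 fold change 0.10, adjusted p = 0.403).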

How the data were processed

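RNA was extracted by the authors from 18 frozen 4T1 tumors, poly(A) selected, made into directional libraries and sequenced as read pairs. Reads were trimmed (cutadapt), aligned to GRCm38 (STAR) and assigned to genes (qCount, QuasR). What was deposited is the raw count of each Entrez gene. Per the labels hg19 was named as well. Tool versions, annotation and strand setting are not given in the sources used here, so that reads of overlapping genes and close copies cannot be separated.

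Counts were analysed here with edgeR 4.0.16 in R 4.3.3. Symbols were matched to 22760 of 22792 identifiers, and the 32 others held 0.0193% of counts. filterByExpr (minimum count 10, minimum total 15) kept 15282 genes. Libraries of 21.16 to 26.62 M counts were scaled by TMM, and all tumors entered 1 model with group means (common biological coefficient of variation 0.2125). Contrasts used the quasi-likelihood F test with Benjamini-Hochberg correction across the tested genes and were called at an adjusted p under 0.05. Standard errors are the log2 fold change over the square root of F. Within-tumor count ratios (0.5 added) were compared by exact two-sided permutation tests, with 24 tests adjusted together.

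Groups come from the treatment label, and nothing beyond separate tumors marks the replicates, so p-values measure the spread between these tumors. The members and gene lists were chosen with earlier results of these data known. All members may be named. Tumor by tumor values are given for members called against Vehicle and the highest of each role, and from other lists the 4 smallest p values and the 2 highest levels. Adm, Hif1a, Hk3, Vegfa and Car9 were given beyond that rule. Of the listed genes, Gapdh, Rbx1, Loxl2, Trbc2, Hbb-bs, Hbb-bt and Ahsp were not analysed here.

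The fit was tested on simulated counts with 1 mean per gene over the real samples and 50 genes changed at each size. For Combo against Vehicle (15176 genes) it recovered 2% of changes of 0.3, 50% of 0.6, 84% of 1 and 96% of 1.5 on the log2 scale, with 1 false call. Alternatives were DESeq2 1.42.0, other scalings and filters, a fold minimum, only the groups compared, marker covariates (mean log2 level of a list), a replicate block and each tumor left out.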

Additional observations from a re-analysis of the deposited data

Results flagged for a closer look

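Among 136 groups of tumors (34 genes in 4 groups), 6 held a tumor whose gap to its nearest neighbor was a larger share of the group's range than Dixon's 95% limit, where chance flags about 1 in 20 groups. Bnip3 was 190 CPM in SHP2i replicate 4 and 137 to 141 in the other SHP2i tumors. Stc2 was 6.87 CPM in the same tumor and 29.9 to 38 in the others. Egln1 was 217 CPM in Combo replicate 1 against 158 to 171 in the other Combo tumors. Plod2 was 94.9 CPM in Vehicle replicate 1 against 66.3 to 70.6, and Hk2 was 87.6 CPM in Vehicle replicate 2 against 125 to 140. Aldoa was 1300 CPM in SHP2i replicate 2 against 1510 to 1520 in the other SHP2i tumors.

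The interaction of both inhibitors passed the test for 2 of the 34 genes, where 2.47% of all genes were called. The interaction term was -1.0 on the log2 scale for Adm (edgeR's quasi-likelihood test, adjusted p = 0.0421) and -0.95 for Ddit4 (adjusted p = 0.0277), both with single inhibitors above Vehicle and Combo nearer to it. Neither call was stable: that of Adm was lost in 15 of 18 fits that left out a tumor and with the replicate block (adjusted p = 0.0819), that of Ddit4 in 4 of 18, and both with each of the 3 marker covariates.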

How the results depend on the processing

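The number of the 34 genes called against Vehicle was 3 in PI3Ki, 7 in SHP2i and 21 in Combo. It was 13 for Combo against PI3Ki, 12 for Combo against SHP2i, 6 for SHP2i against PI3Ki and 2 for the interaction. Leaving out each tumor in turn gave 1 to 7, 3 to 9, 19 to 23, 12 to 15, 6 to 12, 3 to 6 and 0 to 2 in the same order. Against Vehicle, the muscle covariate left 0 of PI3Ki, DESeq2 called 6 in PI3Ki and the groups compared alone gave 12 in SHP2i. For Combo against Vehicle, the neutrophil covariate gave 10 and the endothelial covariate 3. For Combo against PI3Ki the muscle, neutrophil and endothelial covariates gave 0, 0 and 5, and for Combo against SHP2i the neutrophil and endothelial covariates gave 6 and 0. For SHP2i against PI3Ki the muscle and neutrophil covariates gave 0 and 2, and for the interaction all 3 covariates gave 0 and the fit without Combo replicates 3 and 4 together gave 1. A fold change minimum of log2 1 left 0, 0, 5, 3, 1, 1 and 1 in the order above. These covariates differ between the groups by themselves, and the cause of the lost calls was not tested. Adm in Combo against SHP2i turned from -0.52 to 0.38 with the endothelial covariate, and Slc16a3 in SHP2i against PI3Ki from -0.93 to 0.55 with the muscle and to 0.24 with the neutrophil covariate. Other scalings moved the median of all genes by under 0.1. Alternatives for single genes outside the comparisons with Vehicle were added after the data were seen. A change of 0.3 on the log2 scale was rarely recovered in simulation. The simulation changed far fewer genes than the 43.6% called in Combo against Vehicle. It therefore does not give the recovery of small changes there, where members with changes near 0.3 were called.

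Tumors of different groups with the same replicate number did not deviate together (24 pairs, r from -0.42 to 0.33, median 0.02, 8 over 0.1). Of the 18 tumors 4 correlated best with their own number. No pairing by number was seen, which so few tumors cannot exclude. A fit with the number as a replicate block called 3, 9, 21, 14, 10, 5 and 1 genes in the order above, the last down from 2 since Adm was lost (-1.01, adjusted p = 0.0819).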
